A study of Homo sapiens with 24 samples.

Results

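The 9 genes described here encode the nidogens NID1 and NID2, the laminin chains LAMA3, LAMA5, LAMB1, LAMB3 and LAMC1, and the basement membrane proteoglycans HSPG2 (perlecan) and AGRN (agrin). They are 9 of the 59385 gene symbols in the count table. The group was picked from measured values, because NID2 moved in opposite directions in the 2 cell lines, so NID2 against the empty vector is given as a description with no test. Gene expression had been measured by RNA sequencing in A549 and H1299, both established human non-small cell lung carcinoma lines. Lentivirus carried FLAG-tagged SIRT6, a chromatin deacylase, stably into each line as wild type (WT), an acetylation-deficient triple mutant (K3R) or an acetylation-mimetic triple mutant (K3Q). The control (Ctr) received the empty vector, so all 4 groups of a line had been transduced. Each of the 8 groups held 3 libraries: library 1-1 (the first biological replicate, run in batch 1), library 1-2 (that same replicate, run in batch 2) and library 2-2 (the second replicate, also batch 2). Whether libraries 1-1 and 1-2 share a culture is not stated, nor whether the transduced lines were pools or single clones, so p-values measure a spread between libraries that may be partly technical.

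The basement membrane is the thin sheet of matrix on which epithelial cells rest. Its laminins are trimers of an alpha, a beta and a gamma chain, which bind cells through integrins and dystroglycan. Nidogens are rod-like linker proteins that bind the laminin gamma 1 chain and collagen IV, and perlecan and agrin are large proteoglycans that bind laminin, growth factors and dystroglycan. LAMA5 with LAMB1 and LAMC1 makes laminin-511, a major laminin of adult epithelia, and LAMA3 and LAMB3 are chains of laminins that anchor epithelial cells through hemidesmosomes.

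A549 libraries held 16434492 to 19412274 counts each, and H1299 libraries 14943189 to 22856407. SIRT6 stood at 23.5 to 33.1 CPM (reads of a gene scaled to a common library size) in A549 Ctr and at 1438 to 3424 CPM with any SIRT6 construct. In H1299 it stood at 32.8 to 43.0 CPM in Ctr, 2346 to 6280 CPM with WT or K3R and 10578 to 14506 CPM with K3Q, so K3Q went with a higher SIRT6 level in that line, and the part of that level in any K3Q result was not tested. Libraries 1-2 and 2-2 of A549 K3Q were nearly alike, with a chi-square per degree of freedom of 2.60 where the 23 other within-group pairs had 16.1 to 71.5. On the first principal component of A549 (37.5% of the variance) libraries 2-2 of Ctr, WT and K3R stood apart at 51.3 to 54.0, and library 2-2 of K3Q lay at -13.1. The 6 epithelial markers all averaged at least 1 CPM in A549, and 3 of the 6 did in H1299. Fibroblast markers summed to at most 9.82 CPM in any library, endothelial markers to at most 1.81 and blood markers to at most 0.879. In bulk RNA, fewer cells with a transcript and less transcript per cell cannot be told apart.

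The sequences just upstream of NID1, NID2 and LAMA5 are shown because these 3 genes carry the main patterns below. They are RefSeq sequence (GRCh38.p14), 5′ to 3′ on the gene's strand, cut so that no base lies inside the RefSeq or the GENCODE 29 gene. Capitals mark a GC box, GGGCGG on either strand, the letters bound by Sp-family factors. NID1 spans chr1:236065163-236065340, NID2 chr14:52069229-52069309 and LAMA5 chr20:62367313-62367562, all on the minus strand.
NID1: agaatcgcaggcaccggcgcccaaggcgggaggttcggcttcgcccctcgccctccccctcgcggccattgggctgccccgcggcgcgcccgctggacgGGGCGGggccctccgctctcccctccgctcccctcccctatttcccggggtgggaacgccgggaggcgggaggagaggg
NID2: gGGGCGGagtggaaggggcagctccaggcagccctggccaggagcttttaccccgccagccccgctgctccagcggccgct
LAMA5: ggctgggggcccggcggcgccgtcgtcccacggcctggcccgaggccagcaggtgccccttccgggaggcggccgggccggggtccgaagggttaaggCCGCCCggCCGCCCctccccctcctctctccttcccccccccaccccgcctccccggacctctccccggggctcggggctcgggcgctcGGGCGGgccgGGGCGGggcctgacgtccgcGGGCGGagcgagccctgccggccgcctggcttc
In the full windows of 250 bases before the RefSeq start, 8 of the 9 genes had an entry (all but AGRN). GC boxes numbered 1 for NID1, 3 for NID2, 5 for LAMA5, 4 for LAMB1, 3 for LAMC1, 8 for HSPG2, 1 for LAMA3 and 1 in each of the 3 LAMB3 entries. A GC box is common, since 42.6% of 35116 such windows held one. CACCTG, the E-box read by ZEB and SNAI repressors, had 1 match each for LAMA3, LAMA5 and 1 LAMB3 entry (17.5% of all windows). The AP-1 letters TGACTCA or TGAGTCA were found at 2 places for LAMA3 and at 1 for a single LAMB3 entry (4.20% of all windows), and TATAAA in none of the members' windows (10.7% of all). NID1 held 30 CpG pairs, NID2 18 and LAMA5 32, against a median of 11 over all windows. These matches describe letters only. The LAMA3 window (chr18:23872770-23873019) and the LAMB3 entry with the AP-1 match (chr1:209651375-209651624) lie wholly inside the GENCODE 29 gene, before a start within it. Some other full windows overlap their gene in part.

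The lines differed widely in these genes before any SIRT6 was added. LAMA3, LAMA5, LAMB1, LAMC1, HSPG2 and AGRN were lower in H1299 Ctr than in A549 Ctr, LAMB3 was higher and NID1 did not pass. Of all 18102 genes, 63.8% passed (edgeR quasi-likelihood test, Benjamini-Hochberg adjusted p under 0.05, which is what "passed" means throughout). LAMA5 showed the widest gap of the 9, with 930, 1010 and 1028 CPM in A549 and 49.3, 49.4 and 56.8 in H1299 (libraries 1-1, 1-2 and 2-2), a log2 difference of -4.25 ± 0.15 (SE, adjusted p = 1.6e-15). LAMA3 differed by -3.15 ± 0.25 on the log2 scale (adjusted p = 5.5e-10) and LAMB1 by -2.89 ± 0.21 (adjusted p = 1.1e-10). LAMB3 went the other way, at 25.3 to 38.9 CPM in A549 and 77.7 to 86.0 in H1299, a log2 difference of 1.27 ± 0.21 (adjusted p = 2.1e-05). NID2 differed by -1.91 ± 0.26, given with no p because its Ctr values entered the contrasts that chose the genes. NID1 differed by 0.18 ± 0.16 (adjusted p = 0.337). LAMC1, HSPG2 and AGRN were lower in H1299 by log2 differences of -1.49, -1.72 and -1.89. All calls of the genes other than NID2 held in each of the 32 alternative fits.

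**Figure D1:**
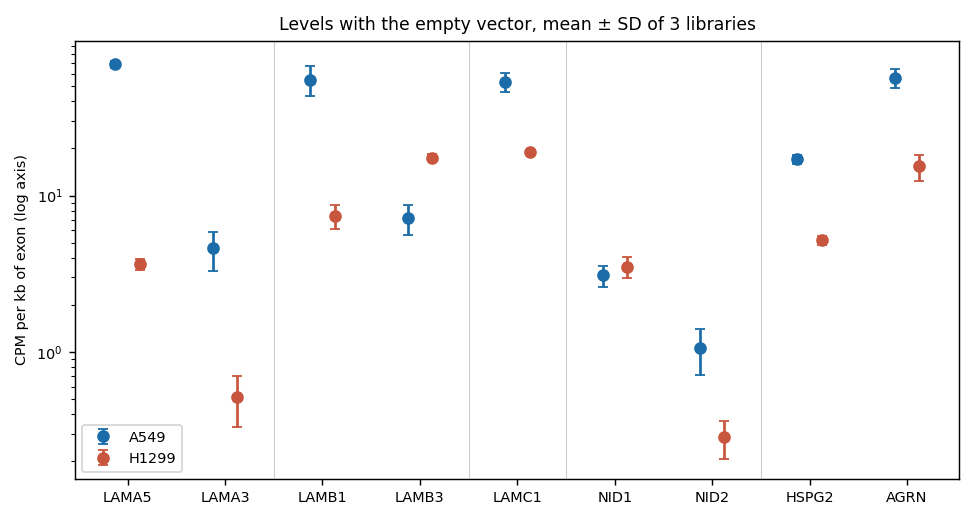
Levels of the 9 genes with the empty vector in A549 and H1299, in CPM per kilobase of exon on a log axis, as mean ± SD of 3 libraries; vertical lines separate alpha, beta and gamma chains, nidogens and proteoglycans. LAMA5 is at 69.2 in A549 and 3.63 in H1299, LAMB3 at 7.18 and 17.4, and NID1 at 3.09 and 3.49.

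Per kilobase of exon, the scale on which levels of different genes can be set side by side, A549 Ctr had LAMA5 at 69.2 ± 3.65 CPM per kb (SD, n = 3), AGRN at 56.6 ± 8.25, LAMB1 at 55.1 ± 11.9 and LAMC1 at 53.3 ± 7.63. The libraries of LAMA5, AGRN and LAMB1 overlapped on this scale, as did those of AGRN, LAMB1 and LAMC1. HSPG2 followed at 17.1, LAMB3 at 7.18, LAMA3 at 4.60, NID1 at 3.09 and NID2 at 1.06 CPM per kb. LAMA5 made up 93.5% ± 1.46 (SD, n = 3) of the summed level per kb of the 5 alpha chain genes. In H1299 Ctr the order was LAMC1 at 18.9 ± 0.56 CPM per kb, LAMB3 at 17.4 ± 0.88, AGRN at 15.4 ± 2.89, LAMB1 at 7.40, HSPG2 at 5.17, LAMA5 at 3.63, NID1 at 3.49, LAMA3 at 0.52 and NID2 at 0.29. LAMA5 and NID1 did not differ beyond their spread there, nor did LAMB3 and AGRN. LAMA5 was 59.8% ± 1.88 of the alpha chains in H1299 Ctr and LAMA2, the merosin chain of muscle and nerve, 30.2% ± 0.35, against 0.10% for LAMA2 in A549 Ctr. LAMB3 was 55.3% ± 4.04 of the beta chains in H1299 Ctr and LAMB1 23.3% ± 2.32, against 9.38% and 71.4% in A549 Ctr. These shares rest on merged exon lengths, which count exons of isoforms that a line may not use.

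**Figure D2:**
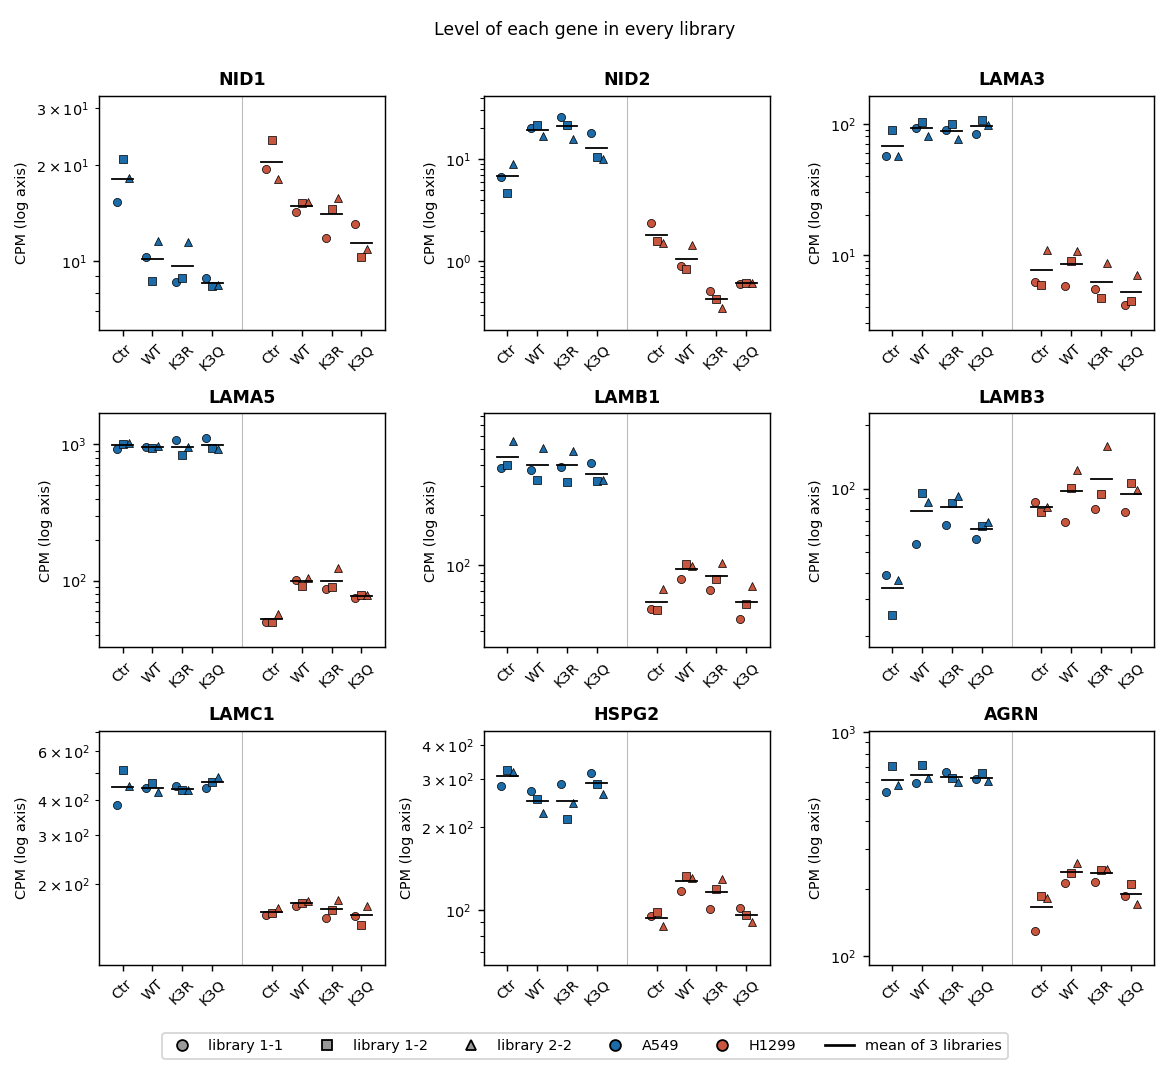
CPM of each of the 9 genes in all 24 libraries, 1 panel per gene with a log axis; symbols mark the library number, colours the line, and horizontal bars the mean of 3 libraries. NID2 lies above Ctr in A549 and under it in H1299, NID1 lies under Ctr in both lines, and LAMA5 lies above Ctr in H1299 and overlaps it in A549.

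NID2 (ENSG00000087303, GRCh38 chromosome 14, 52004803 to 52069228, minus strand) encodes nidogen-2, a linker protein related to nidogen-1. In A549 it stood at 6.70, 4.61 and 8.99 CPM in Ctr (libraries 1-1, 1-2 and 2-2), 19.99, 21.4 and 16.7 with WT, 25.8, 21.5 and 15.7 with K3R, and 17.9, 10.6 and 10.1 with K3Q. Every A549 library with a SIRT6 construct lay above every Ctr library. In H1299 it stood at 2.39, 1.58 and 1.497 CPM in Ctr, 0.90, 0.85 and 1.43 with WT, 0.51, 0.43 and 0.35 with K3R, and 0.60, 0.61 and 0.62 with K3Q. Every H1299 library with a SIRT6 construct lay under every Ctr library, by little for the highest WT library, which held 26 reads of NID2 against 28 in the lowest Ctr library. H1299 libraries held 6 to 56 reads of NID2 each, and A549 libraries 72 to 423. The log2 changes against Ctr were 1.52 ± 0.26 (SE) for WT, 1.61 ± 0.26 for K3R and 0.89 ± 0.26 for K3Q in A549, and -0.77 ± 0.33, -2.06 ± 0.36 and -1.57 ± 0.35 in H1299. These 6 contrasts are the ones that chose the genes, and they share their Ctr libraries within a line. Between same-numbered libraries of A549 K3Q and Ctr the log2 difference was 1.40 in library 1-1, 1.18 in 1-2 and 0.17 in 2-2, the last against the highest Ctr library. With the nearly alike K3Q libraries summed into 1 the K3Q change was 0.96 ± 0.29.

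Contrasts among the constructs reuse the construct libraries whose NID2 values chose the genes, so NID2 is described there too, with no p. In A549, the K3Q estimate was below WT by -0.63 ± 0.25 on the log2 scale and below K3R by -0.72 ± 0.25. K3R and WT differed by 0.09 ± 0.24 there. In H1299, K3R was below WT in 3 of 3 matched libraries by -1.29 ± 0.37, and the K3Q estimate was below WT by -0.80 ± 0.36. In A549 the highest K3Q library, at 17.9 CPM, overlapped the WT and K3R libraries. In H1299 the K3R libraries, at 0.35 to 0.51 CPM, lay below all WT and K3Q libraries. Against K3Q that order rests on few reads, 6 to 12 of NID2 per library with K3R and 9 to 13 with K3Q, and these ranges overlap.

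NID1 (ENSG00000116962, chromosome 1, 235975830 to 236065162, minus strand) encodes nidogen-1, the classical linker between laminin and collagen IV. It was lower than Ctr with every construct in both lines, and the groups never overlapped. In A549 it stood at 15.3, 20.9 and 18.2 CPM in Ctr, 10.3, 8.71 and 11.6 with WT, 8.66, 8.89 and 11.5 with K3R, and 8.89, 8.40 and 8.46 with K3Q. In H1299 it stood at 19.4, 23.98 and 18.1 CPM in Ctr, 14.3, 15.2 and 15.3 with WT, 11.8, 14.6 and 15.8 with K3R, and 13.0, 10.3 and 11.0 with K3Q. The lowest Ctr library of each line was thus above the highest library of each construct.

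The log2 changes of NID1 in A549 were -0.82 ± 0.16 for WT (edgeR adjusted p = 0.0981), -0.90 ± 0.16 for K3R (adjusted p = 0.0741) and -1.07 ± 0.16 for K3Q (adjusted p = 0.0602). In H1299 they were -0.45 ± 0.15 (adjusted p = 0.128), -0.55 ± 0.15 (adjusted p = 0.0714) and -0.83 ± 0.16 (adjusted p = 0.0929). None of the 6 passed, although each had an unadjusted p of 0.0107 or less. With the replicate number as a block, in the paired fit, NID1 passed for WT and K3R in A549 (adjusted p = 0.0352 and 0.0278) and for K3R and K3Q in H1299 (adjusted p = 0.0313 and 0.0249). DESeq2 gave the same 4 calls, and A549 K3Q as well (adjusted p = 7.2e-06). NID1 in A549 K3Q also passed when K3R library 2-2 was left out (adjusted p = 0.0421), and was -1.05 (adjusted p = 0.394) with the nearly alike K3Q libraries summed into 1. In batch 2 alone the log2 changes were -0.95, -0.95 and -1.22 in A549 and -0.46, -0.48 and -0.99 in H1299, and in the single batch 1 pair -0.56, -0.81 and -0.77 and then -0.44, -0.71 and -0.57. The change of NID1 did not pass as different between the lines, at 0.36 ± 0.23 for WT (H1299 minus A549, adjusted p = 0.690), 0.36 ± 0.23 for K3R (adjusted p = 0.778) and 0.24 ± 0.23 for K3Q (adjusted p = 0.883).

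**Figure D3:**
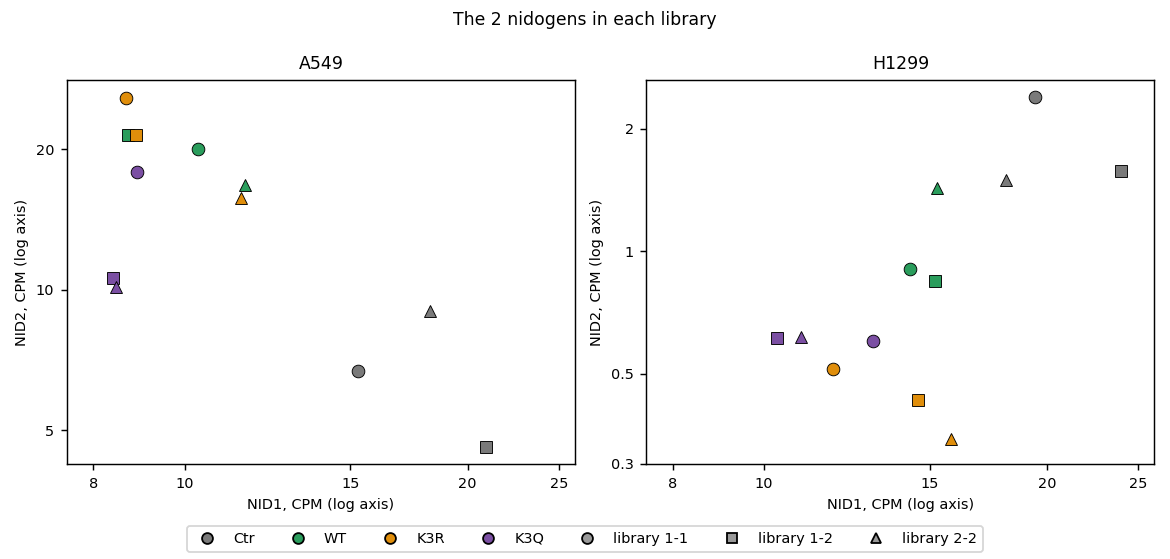
NID1 (horizontal) and NID2 (vertical), both in CPM on log axes, in the 12 libraries of A549 (left) and of H1299 (right); colours mark the construct and symbols the library. In A549 the Ctr libraries sit low in NID2 and high in NID1, while in H1299 they sit high in both; the vertical axes cover different ranges.

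Per kilobase, NID2 made up 25.6% ± 7.65 (SD, n = 3) of the nidogen level in A549 Ctr, 63.4% ± 6.17 with WT, 65.9% ± 9.16 with K3R and 57.0% ± 6.87 with K3Q. The summed level of both nidogens was 4.15 ± 0.45 CPM per kb in A549 Ctr, 4.77 ± 0.16 with WT, 4.93 ± 0.55 with K3R and 3.48 ± 0.73 with K3Q, so the sum moved less than either gene. In H1299, NID2 was 7.64% ± 2.29 of the nidogen level in Ctr, 6.08% ± 1.60 with WT, 2.82% ± 0.95 with K3R and 4.71% ± 0.58 with K3Q. There the summed level was 3.78 ± 0.52 CPM per kb in Ctr, 2.71 ± 0.13 with WT, 2.47 ± 0.33 with K3R and 2.05 ± 0.24 with K3Q. NID2 enters each of these values, so they are a description.

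Laminin alpha chains decide which receptors a laminin binds. LAMA5 (ENSG00000130702, chromosome 20, 62307955 to 62367312, minus strand) stood at 49.3, 49.4 and 56.8 CPM in H1299 Ctr, 101.2, 91.1 and 105 with WT, 87.0, 89.3 and 123 with K3R, and 74.6, 78.6 and 78.9 with K3Q. All 9 libraries with a SIRT6 construct lay above all 3 Ctr libraries. LAMA5 rose by 0.94 ± 0.13 on the log2 scale with WT (edgeR adjusted p = 0.00349) and by 0.94 ± 0.13 with K3R (adjusted p = 0.00356). With K3Q the change was 0.58 ± 0.13 (adjusted p = 0.156), which passed in the paired fit with the replicate block (adjusted p = 0.0201). The WT and K3R calls held without any 1 of the 12 libraries. They were lost in batch 2 alone, with 2 libraries per group (adjusted p = 0.0779 and 0.0884 at log2 changes of 0.89 and 0.99), and when the libraries of replicate 1 were summed (adjusted p = 0.0613 and 0.0707). In batch 1 the single pair differed by 1.04 for WT and 0.82 for K3R. In A549, LAMA5 ran from 835 to 1111 CPM over all 12 libraries, its groups overlapped, and its log2 changes were -0.04, -0.05 and -0.01.

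LAMA3 (ENSG00000053747, chromosome 18, 23689443 to 23956222, plus strand) stood at 56.8, 89.4 and 56.3 CPM in A549 Ctr, 92.3, 104 and 81.2 with WT, 88.9, 99.1 and 75.8 with K3R, and 83.2, 107 and 98.3 with K3Q. Each construct was above the Ctr library of the same number, but Ctr library 1-2 overlapped every construct. The log2 changes of 0.47 ± 0.18, 0.39 ± 0.18 and 0.51 ± 0.18 did not pass (edgeR adjusted p = 0.536, 0.732 and 0.474). In H1299, LAMA3 was low, at 4.12 to 10.8 CPM, with log2 changes of 0.13 ± 0.27, -0.29 ± 0.27 and -0.56 ± 0.28 that did not pass. It was lower with K3Q than with WT in H1299 by -0.69 ± 0.28 (adjusted p = 0.180), which passed in the paired fit with the replicate block (adjusted p = 0.0162).

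Of the beta chains, LAMB3 (ENSG00000196878, chromosome 1, 209614870 to 209652466, minus strand) stood at 38.9, 25.3 and 36.9 CPM in A549 Ctr, 54.9, 95.1 and 86.4 with WT, 67.6, 85.8 and 91.9 with K3R, and 57.5, 66.6 and 69.3 with K3Q. The 9 libraries with a SIRT6 construct lay above all Ctr libraries. LAMB3 rose with K3R by 1.25 ± 0.19 on the log2 scale (edgeR adjusted p = 0.0435), the only call among the 9 genes in A549. With WT the change was 1.19 ± 0.19 (adjusted p = 0.0539), which passed in the paired fit with the replicate block (adjusted p = 0.0144) and without Ctr library 1-1 (adjusted p = 0.0341). With K3Q it was 0.91 ± 0.19 (adjusted p = 0.158). The K3R call was lost without Ctr library 1-2 or 2-2 (adjusted p = 0.0816 and 0.108), WT 2-2 (0.0621), K3R 1-1, 1-2 or 2-2 (0.196, 0.175 and 0.102), or K3Q 1-1, 1-2 or 2-2 (0.0882, 0.110 and 0.103), at log2 changes of 1.03 to 1.32. In batch 2 alone the K3R change was 1.51 (adjusted p = 0.212), and in the batch 1 pair 0.80. With the nearly alike K3Q libraries summed into 1, its adjusted p was 0.104, and the K3Q change was 0.91 (adjusted p = 0.607). In H1299, LAMB3 ran from 69.8 to 159 CPM, with log2 changes of 0.21 ± 0.20, 0.39 ± 0.20 and 0.17 ± 0.20 that did not pass.

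LAMB1 (ENSG00000091136, chromosome 7, 107923799 to 108003255, minus strand) stood at 54.8, 53.9 and 72.1 CPM in H1299 Ctr, 82.5, 102 and 98.8 with WT, 71.0, 83.1 and 103 with K3R, and 47.2, 58.7 and 74.8 with K3Q. The WT libraries lay above the Ctr libraries, and the K3Q libraries overlapped Ctr. LAMB1 rose with WT by 0.65 ± 0.14 on the log2 scale (edgeR adjusted p = 0.0199). It changed by 0.49 ± 0.14 with K3R (adjusted p = 0.0698), which passed in the paired fit with the replicate block (adjusted p = 0.00608), and by -0.02 ± 0.14 with K3Q (adjusted p = 0.980). LAMB1 was lower with K3Q than with WT by -0.66 ± 0.14 (adjusted p = 0.0216), and lower with K3Q than with K3R by -0.51 ± 0.14 (adjusted p = 0.128, or 0.0110 with the block). The call for WT against Ctr was lost without Ctr 1-2, WT 1-1 or WT 2-2 (adjusted p = 0.0754, 0.0743 and 0.0541), and that for K3Q against WT without WT 1-1, 1-2 or 2-2 (0.0827, 0.0576 and 0.0608) or K3Q 1-1 or 1-2 (0.155 and 0.103). With all 24 libraries in 1 fit both calls were lost (0.0560 and 0.0524). In batch 2 alone the 2 changes were 0.67 and -0.60 (adjusted p = 0.182 and 0.354), and in the batch 1 pair 0.59 and -0.80. In A549, LAMB1 followed the library number: library 2-2 of Ctr, WT and K3R stood at 560, 511 and 488 CPM, and the other 9 libraries at 319 to 413. Its A549 changes of -0.14 ± 0.21, -0.17 ± 0.21 and -0.34 ± 0.21 did not pass.

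LAMC1 (ENSG00000135862, chromosome 1, 183023460 to 183145592, plus strand), the gamma chain that nidogens bind, had the narrowest range of changes against Ctr of the 9 genes. It ran from 383 to 511 CPM in A549 and from 143 to 175 CPM in H1299, and the groups overlapped except that all WT libraries of H1299 lay above Ctr. Its log2 changes against Ctr ran from -0.04 to 0.11 with SEs of 0.09 to 0.10, and none passed.

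Of the proteoglycan genes, AGRN rose with WT and K3R in H1299 and HSPG2 with WT. Agrin is known for clustering receptors at the nerve-muscle junction and is also made by epithelia. AGRN (ENSG00000188157, chromosome 1, 1020123 to 1056118, plus strand) stood at 129, 184 and 182 CPM in H1299 Ctr, 213, 236 and 261 with WT, 214, 243 and 246 with K3R, and 186, 210 and 170 with K3Q. AGRN rose by 0.53 ± 0.11 with WT (edgeR adjusted p = 0.0229) and by 0.51 ± 0.11 with K3R (adjusted p = 0.0309), with no overlap with Ctr, while K3Q overlapped Ctr at 0.20 ± 0.11 (adjusted p = 0.580). The WT call was lost without Ctr 1-1, WT 1-1 or WT 2-2 (adjusted p = 0.0909, 0.0726 and 0.100). The K3R call was lost without Ctr 1-1, 1-2 or 2-2 (0.126, 0.0622 and 0.0647) or K3R 1-1 or 2-2 (0.144 and 0.103). In batch 2 alone the changes were 0.44 and 0.40 (adjusted p = 0.245 and 0.355), and in the batch 1 pair 0.72 and 0.73. In A549, AGRN ran from 539 to 715 CPM with log2 changes of 0.09, 0.05 and 0.04.

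HSPG2 (ENSG00000142798, chromosome 1, 21822245 to 21937297, minus strand) stood at 94.9, 98.5 and 87.5 CPM in H1299 Ctr, 117, 133 and 131 with WT, 100.8, 119 and 130 with K3R, and 101.3, 95.9 and 90.1 with K3Q. HSPG2 rose with WT by 0.44 ± 0.11 (edgeR adjusted p = 0.0367), and its changes of 0.31 ± 0.11 with K3R and 0.03 ± 0.11 with K3Q did not pass (adjusted p = 0.148 and 0.945). The WT call was lost without any 1 of its 6 libraries (adjusted p = 0.0612, 0.0874 and 0.135 without Ctr 1-1, 1-2 and 2-2, and 0.0764, 0.0982 and 0.126 without WT 1-1, 1-2 and 2-2). In batch 2 alone the WT change was 0.51 (adjusted p = 0.149), and in the batch 1 pair 0.31. K3Q was below WT by -0.41 ± 0.11 (adjusted p = 0.0550), which passed in the paired fit with the replicate block (adjusted p = 0.0161) and without Ctr 2-2 or K3R 2-2 (0.0495 and 0.0462). In A549, HSPG2 was at 284, 325 and 318 CPM in Ctr, 272, 254 and 227 with WT, and 287, 215 and 246 with K3R. The A549 changes of -0.30 ± 0.11 and -0.32 ± 0.11 did not pass (adjusted p = 0.517 and 0.520), nor did that of -0.10 with K3Q.

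**Figure D4:**
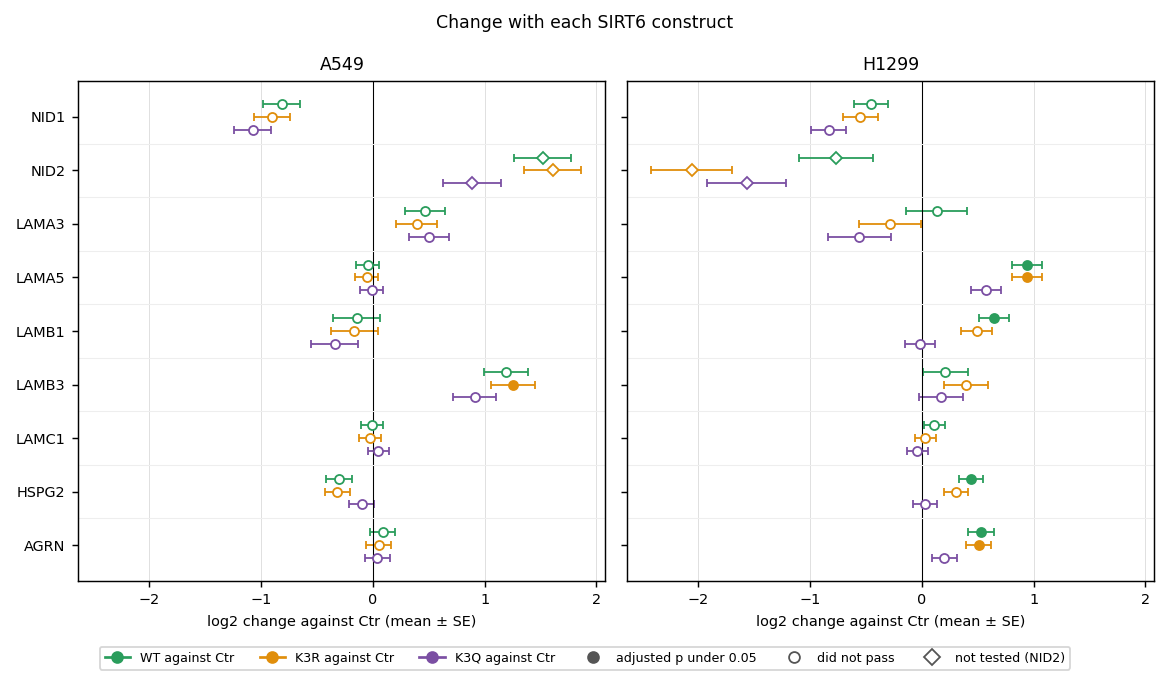
Log2 change against Ctr (horizontal, estimate ± SE) of the 9 genes in A549 (left) and H1299 (right), with 1 colour per construct; filled circles passed at an adjusted p under 0.05, open circles did not, and diamonds mark NID2, which chose the group and was not tested. Filled circles are LAMB3 with K3R in A549, and in H1299 LAMA5, LAMB1, HSPG2 and AGRN with WT and LAMA5 and AGRN with K3R.

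Counted over the 8 genes tested against Ctr (all but NID2), 0 passed with WT in A549 by edgeR, beside 0.105% of all genes. At an unadjusted p under 0.05 were 4 of the 8, beside 1279 of all 16120 genes, and 2 passed by DESeq2. Shares of all genes passing by DESeq2 are not given in this report, so counts by DESeq2 are a description only throughout. They cannot be set against the edgeR shares. With K3R 1 passed, beside 0.118% of all genes. With K3Q 0 passed by edgeR, beside 0.0248% of all genes, and 2 by DESeq2. At an unadjusted p under 0.05 were 3 of the 8, beside 1390 of all 16120 genes. In H1299, 4 of the 8 rose with WT, beside 4.05% of all genes, and 2 of the 8 with K3R, beside 3.25% of all genes. With K3Q 0 passed by edgeR, beside 0.0615% of all genes, and 2 by DESeq2. At an unadjusted p under 0.05 were 2 of the 8, beside 1580 of all 16262 genes. The median log2 change of the 8 genes in H1299 was 0.33 with WT, 0.35 with K3R and 0.01 with K3Q, where the median of all genes was -0.01, -0.01 and -0.01. In A549 the 3 medians were -0.03, -0.04 and 0.01. With the replicate block in the paired fit, 105 and 88 genes of the A549 table passed for WT and K3R, and 1585, 1392 and 136 of the H1299 table for WT, K3R and K3Q, and of the members 2, 2, 4, 4 and 2 passed.

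Among the constructs, NID2 is left out of the counts. Of the 8 other genes, 0 passed between K3R and WT in A549 by edgeR and 0 by DESeq2, beside 0% of all genes by edgeR. At an unadjusted p under 0.05 were 0 of them, beside 116 of all 16120 genes. Between K3R and WT in H1299, 0 passed by edgeR and 0 by DESeq2, beside 0% of all genes by edgeR. At an unadjusted p under 0.05 were 0 of the 8, beside 486 of all 16262 genes. In A549, 0 of the 8 passed for K3Q against WT by edgeR and 0 by DESeq2, beside 0.0062% of all genes by edgeR. For K3Q against K3R 0 passed by edgeR and 0 by DESeq2, beside 0.0062% of all genes by edgeR. At an unadjusted p under 0.05 were 0 of the 8 in each, beside 1041 and 708 of all 16120 genes. The lowest edgeR p was that of HSPG2, at 0.0973 and 0.0759 before adjustment. In H1299 all 8 genes had a lower estimate with K3Q than with WT. The median log2 difference of the 8 genes was -0.37 against 0.00 for all genes, and 1 of the 8 (LAMB1) passed, beside 3.46% of all genes. With the block 4 of the 8 passed there, which added LAMA3, LAMA5 and HSPG2, and 1946 genes of the table. Against K3R in H1299, 0 of the 8 passed for K3Q by edgeR, beside 0.449% of all genes, and 1 (LAMB1) by DESeq2. At an unadjusted p under 0.05 were 4 of the 8, beside 1938 of all 16262 genes.

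The difference between lines in the response was itself tested for the 8 genes. For WT against Ctr 2 of the 8 passed, beside 0.735% of all genes. LAMA5 responded more in H1299 by 0.99 ± 0.17 on the log2 scale (edgeR adjusted p = 0.00654). For HSPG2 the change in H1299 minus that in A549 was 0.74 ± 0.16 (adjusted p = 0.0280), with estimates of 0.44 in H1299 and -0.30 in A549. For K3R 1 of the 8 passed, LAMA5 at 1.00 ± 0.17 (adjusted p = 0.00767), beside 0.475% of all genes. For K3Q 0 passed by edgeR, beside 0.0166% of all genes, and 0 by DESeq2. At an unadjusted p under 0.05 were 3 of the 8, beside 1135 of all 18102 genes. LAMA5 kept both calls without any 1 of the 24 libraries and lost them in batch 2 alone (adjusted p = 0.205 and 0.0992 at differences of 1.00 and 1.22). HSPG2 lost its WT call without A549 Ctr 1-2 or 2-2 (0.0653 and 0.0517), A549 WT 1-1 or 2-2 (0.0623 and 0.0662), H1299 Ctr 1-2 or 2-2 (0.0572 and 0.0882) or H1299 WT 1-2 or 2-2 (0.0535 and 0.0672). For K3R its difference of 0.63 ± 0.16 (adjusted p = 0.0870) passed without A549 Ctr 1-1 (0.0312) and with the block (0.0334). LAMB1 for WT, at 0.79 ± 0.26 (adjusted p = 0.236), passed with the block (0.0156). The estimates for LAMB3 ran the other way, at -0.98 ± 0.30, -0.85 ± 0.29 and -0.74 ± 0.29 for WT, K3R and K3Q, and did not pass (adjusted p = 0.170, 0.317 and 0.698). For NID2, with no test, the differences were -2.30 ± 0.39, -3.66 ± 0.42 and -2.46 ± 0.41.

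Around these genes, 4 lists were followed: 35 further basement membrane genes, 21 receptors, 20 genes that build or trim the glycans on dystroglycan and heparan sulfate, and 17 proteases that cut these proteins. In A549, 0 of the 73 list genes tested passed in any comparison by edgeR. For WT, K3R and K3Q against Ctr 17, 17 and 20 had an unadjusted p under 0.05, beside 1279, 1115 and 1390 of all 16120 genes. DESeq2 passed 3, 2 and 5, a description only, since its share of all genes is not given. In H1299, 6 of 64 rose and 4 fell with WT, beside 4.05% of all genes passing, and 4 rose and 4 fell with K3R, beside 3.25%. With K3Q 0 passed by edgeR, beside 0.0615%, and 1 by DESeq2. At an unadjusted p under 0.05 were 13 of the 64 with K3Q, beside 1580 of all 16262 genes. With the replicate block in the paired fit, 10 and 7 passed in H1299 with WT, 8 and 5 with K3R, and 1 and 1 with K3Q, higher and lower in turn, where 1585, 1392 and 136 of the 16262 genes tested passed.

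Among receptors in H1299, ITGB4, the integrin beta 4 of hemidesmosomes, rose from 9.27 ± 3.08 CPM (SD, n = 3) in Ctr to 22.1 ± 7.15 with WT (edgeR adjusted p = 0.0367) and 23.4 ± 8.25 with K3R (adjusted p = 0.0334). BCAM, a receptor for laminin alpha 5, rose with WT from 39.9 ± 4.94 to 70.8 ± 16.9 CPM (adjusted p = 0.0257), and DST, which ties hemidesmosomes to keratin, from 216 to 327 (adjusted p = 0.0138). COL17A1, the hemidesmosomal collagen, rose with K3R from 18.1 to 43.0 CPM (adjusted p = 0.0380). SDC1, a heparan sulfate proteoglycan of the cell surface, fell from 15.1 CPM to 8.91 with WT and 6.67 with K3R (adjusted p = 0.0252 and 0.00407). The median change of the 20 receptors tested was 0.28 with WT and 0.22 with K3R, against -0.01 for all genes in each.

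Among further basement membrane genes in H1299, LAMC3, the laminin gamma 3 chain, fell from 11.6 CPM to 4.67 with WT and 4.36 with K3R (edgeR adjusted p = 0.00409 and 0.00356), and stood at 8.48 with K3Q, higher than with WT (adjusted p = 0.0358). PXDN, the peroxidase that crosslinks collagen IV, rose with WT from 78.9 to 141 CPM (adjusted p = 0.00667) and was lower with K3Q than with WT (adjusted p = 0.00688), as were NTN4, a laminin-related netrin (adjusted p = 0.0178), and DST among the receptors (adjusted p = 0.00719). Of the glycan genes, LARGE2, which extends the sugar on dystroglycan that laminins bind, rose from 5.34 CPM to 9.99 with WT and 8.88 with K3R (adjusted p = 0.0151 and 0.0493), and XYLT2 fell with K3R by -0.48 (adjusted p = 0.0420). Of the proteases, MMP2 rose from 1.58 ± 1.06 CPM to 9.28 ± 6.10 with WT and 7.83 ± 4.05 with K3R (adjusted p = 0.0121 and 0.0225). The lysosomal protease CTSL fell from 73.1 to 36.4 and 40.6 CPM (adjusted p = 0.0044 and 0.0110), and PRSS12, the agrin-cutting neurotrypsin, fell with WT from 13.2 to 7.17 (adjusted p = 0.0373). K3Q was lower than WT in MMP2 (adjusted p = 0.0341) and BMP1 (adjusted p = 0.0452) and higher in CTSL (adjusted p = 0.0451).

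In the tests between lines, the WT response of LAMC3, BCAM, DST and CTSL differed, at -2.15, 1.20, 0.83 and -1.03 on the log2 scale, H1299 minus A549 (edgeR adjusted p = 0.0365, 0.0302, 0.0394 and 0.0497). HS6ST2 passed for K3R, but it had 0 reads in all 3 H1299 K3R libraries and 0 to 19 in H1299 Ctr, so no fold is given. For K3Q 0 of the 78 list genes tested passed by edgeR, beside 0.0166% of all genes, and 1 by DESeq2. At an unadjusted p under 0.05 were 10 of the 78, beside 1135 of all 18102 genes.

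The genes whose pattern was most like that of NID2 were ALDH1A3 (Pearson r = 0.79), SHANK1 (0.74), CARMIL1 (0.73), RUFY3 (0.71) and MIR100HG (0.70), and the least like were RP11-680F8.3 (-0.75), SSR4 (-0.72) and TPCN1 (-0.70). The measure was log2 CPM over 24 libraries after the mean of each line and batch was taken off, among 12339 genes with a mean log2 CPM of at least 1. ALDH1A3, a retinaldehyde dehydrogenase, stood at 21.9 to 26.3 CPM in A549 Ctr and 22.4 to 56.5 with the constructs, and at 0.22 to 0.90 in H1299 Ctr and 0 to 0.26 with the constructs. Of the members, LAMA3 and LAMB3 had r = 0.45 each, LAMC1 -0.05, NID1 -0.13, LAMB1 -0.20, AGRN -0.30, HSPG2 -0.44 and LAMA5 -0.49. The libraries share constructs and batches, so these are descriptions.

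Genes on the opposite strand overlap some members, and the strand setting of the counting is not given in the sources used here. RTRAF, an RNA-binding protein gene, shares 30.0% of the exon bases of NID2, and stood at 97.97 to 119 CPM in A549 and 61.3 to 82.5 in H1299. RTRAF log2 changes among the constructs of a line ran from -0.09 to 0.05, none passing, and those of NID2 from -2.06 to 1.61. Between the Ctr groups RTRAF was lower in H1299 than in A549 by -0.59 ± 0.12 (SE, edgeR adjusted p = 0.00019), as NID2 was. The part of RTRAF reads in the NID2 values was not tested. LDLRAD2 shares 11.7% of the exon bases of HSPG2 and stayed at or under 0.366 CPM in all 24 libraries. Other overlaps covered at most 3.74% of a member's exon bases.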

How the data were processed

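RNA-seq counts per gene for 24 libraries were used as the authors deposited them, as whole numbers that are not normalized. Per the submitters' processing notes, STAR, featureCounts, cutadapt and FastQC were used with the GRCh38 build. Tool versions, the release of the annotation and the strand setting of the counting were, in the sources used here, not given, which limits values of genes that overlap another. The members and lists were chosen with earlier results of these data known. Named are all 9 members, SIRT6, the list genes that passed in comparisons within a line or between the lines' responses (those passing between the Ctr groups are not named), the 5 genes most like and 3 least like NID2, and the 2 genes with the widest exon overlap with a member.

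Counts were tested in R 4.3.3 with the quasi-likelihood test of edgeR 4.0.16 (TMM scaling, filterByExpr with a minimum count of 10, construct and batch as terms), over 16120 genes in A549, 16262 in H1299 and 18102 across both lines, with Benjamini-Hochberg adjustment over all of them. All 9 members passed the count filter in each line. CPM were scaled by TMM over 24 libraries, log2 CPM used a prior count of 2, and exon lengths and gene positions came from GENCODE 29 (GRCh38). The code was tested on simulated data. Alternatives were DESeq2 1.42.0, RLE scaling, testing with no low-count filter, dropping the batch term, a block for the replicate number, batch 2 alone, replicate 1 alone or summed, the A549 K3Q pair summed, all 24 libraries in 1 fit, and each library left out.

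Same-numbered libraries deviated together from their group means (correlations of 0.135 to 0.553 in H1299 and 0.275 to 0.746 in A549), batch included, except library 2-2 of A549 K3Q (0.0566 to 0.118). A shared batch alone would also make them deviate together, so these correlations cannot show a pairing beyond batch. In H1299 and in A549 Ctr, WT and K3R the number is taken as a possible pairing. The results called the paired fit rest on that reading, which was not tested, and the main fit did not use it. That fit had construct and batch as terms, and the replicate block was an alternative. The block also covered A549 K3Q, where it is not a pairing.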

Additional observations from a re-analysis of the deposited data

Results flagged for a closer look

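The response of NID2 to each construct differed in direction between the lines, and the genes were chosen for this difference, which was not tested. The log2 change against Ctr in H1299 minus that in A549 was -2.30 for WT, -3.66 for K3R and -2.46 for K3Q. Every A549 library with a construct was above Ctr and every H1299 library below it.

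LAMA5 responded differently in the lines by the test of the difference itself, by 0.99 for WT (edgeR adjusted p = 0.00654) and 1.00 for K3R (adjusted p = 0.00767), and was above Ctr in 3 of 3 matched libraries of H1299 for each. HSPG2 differed for WT by 0.74 (edgeR adjusted p = 0.0280), with WT above Ctr in 3 of 3 matched libraries of H1299 and below it in 3 of 3 of A549.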

How the results depend on the processing

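No direction of a called value reversed under any alternative run. Counts of members passing below leave out NID2 and are in the order WT, K3R and K3Q against Ctr unless said otherwise. With no low-count filter the counts were 2, 2 and 3 in A549, 5 for K3R, 2 for K3Q, 3 and 1 for K3Q against WT and K3R in H1299, and 4, 4 and 2 for the line difference. DESeq2 gave 2, 2 and 2 in A549, 4 for K3R, 2 for K3Q, 2 and 1 for K3Q against WT and K3R in H1299, and 2 for the line difference with K3R. Biological replicate 1 only gave 3, 2 and 2 in A549, 5 for WT (with NID1 at -0.55, edgeR adjusted p = 0.0241), 4 for K3R, 3 for K3Q, 4 and 1 for K3Q against WT and K3R in H1299, and 4, 3 and 1 for the line difference. Calls over all genes rose there too, from 10 to 2028 for K3Q in H1299 and from 133, 86 and 3 to 581, 521 and 444 for the line difference. With no low-count filter they rose from 4 to 641 for K3Q in A549. Where no share of all genes is given, these member counts are a description only.

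With the replicate block, 2, 2 and 2 passed in A549, 4 for K3R, 2 for K3Q, 4 and 1 for K3Q against WT and K3R in H1299, and 2 for K3R and 1 for K3Q in the line difference. The A549 K3Q calls under the block, which is not a pairing there, were NID1 (edgeR adjusted p = 0.0143) and LAMB3 (0.0380), with 144 genes of the table, and LAMA3 in the K3Q line difference (0.0152). The block changed no call of a member other than those given here and in the report. The A549 K3Q pair summed with the replicate block, chosen after seeing the data, gave 3, 3 and 2 in A549, and 0 for K3R without the block.

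Without a batch term 0 passed for K3R in A549, 1 for WT, 1 for K3R and 0 for K3Q against WT in H1299, and 1 for the WT line difference. In batch 2 alone 0 passed for K3R in A549, for WT, for K3R and for K3Q against WT in H1299, and for the WT and K3R line differences. With replicate 1 summed 0 passed for K3R in A549 and for WT, K3R and K3Q against WT in H1299. These last 2 settings leave 2 libraries a group. With all 24 libraries in 1 fit 1, 2 and 1 passed in A549, 3 for WT and 2 for K3Q in H1299, where LAMB1 lost its calls for WT against Ctr and K3Q against WT (edgeR adjusted p = 0.0560 and 0.0524).

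Leaving out 1 library gave 0 to 1 for each construct in A549, 1 to 4 for WT, 1 to 2 for K3R and 0 to 2 for K3Q against WT in H1299, and 1 to 2 for the WT and for the K3R line difference. Over all genes, calls for WT in H1299 went from 659 to 90 in batch 2 alone, 1585 with the replicate block, and 245 to 742 with 1 library left out. For K3R they went from 528 to 20, 1392, and 102 to 711, and for K3Q against WT from 563 to 8 in batch 2 alone, 4033 in replicate 1 only, and 41 to 849. In A549 calls for WT went from 17 to 1 in batch 2 alone and 706 with the pair summed and the block, and for K3R from 19 to 1 and 575. The A549 K3Q calls went from 4 to 1 in batch 2 alone and 641 with no low-count filter. In H1299 the K3Q calls went from 10 to 1 and to 2028 in replicate 1 only. The cause was not tested. NID2 in H1299 rests on 6 to 56 reads a library, so its size there is the least precise of the members.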
